A study of Mus musculus with 12 samples.

Results

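The creatine cycle genes described here are 7 of the 61210 genes in the count table of brown fat (iBAT), namely Gatm, Gamt, Slc6a8, Ckb, Ckmt1, Ckmt2 and Alpl. They were taken by gene symbol. Total RNA was sequenced from 12 wild type C57BL/6N mice aged 20 weeks, 3 in each of 4 groups. The NCD RT and NCD cold mice stayed on chow (Ssniff V1554), and the HFD RT and HFD cold mice were changed at 8 weeks of age and kept for 12 weeks on a high-fat diet from Ssniff, D12492 (I) mod. Cold mice were kept at 4 °C for 24 h, and RT stands for room temperature, given as 22 °C in the table. The sex of the mice is not given in the sources used here. The design text of the series calls the tissue inguinal and the paper calls it interscapular. All 9 genes of the brown adipocyte marker list were detected in every group, with a summed level of 13567 to 32635 CPM (counts scaled to a common library size, as edgeR's TMM-normalized CPM). The list also holds general adipocyte genes such as Pparg and Adipoq, while Ucp1 alone had group means of 4203 to 16357 CPM. Bulk RNA cannot tell fewer cells of a type from less RNA per cell.

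Cells make creatine in a pair of steps. Gatm joins arginine and glycine to guanidinoacetate, and Gamt methylates that product to creatine, while Slc6a8 is the carrier that takes creatine up from outside. Creatine kinases move phosphate between ATP and creatine, with Ckb and the muscle isoform Ckm in the cytosol and Ckmt1 and Ckmt2 in mitochondria. In thermogenic fat, creatine is known for a cycle in which phosphocreatine is made and hydrolysed again without useful work, and both Ckb and the phosphatase Alpl have been placed in that cycle.

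The promoters of Ckb, Alpl and Gamt are shown because these genes carry the cold results described further on. The sequences are those of RefSeq on GRCm38.p6, from 250 bases before to 50 bases after an annotated start, 5′ to 3′ on the strand of the gene. Ckb lies on the minus strand of chromosome 12 with its window at chr12:111672289-111672588, and Gamt on the minus strand of chromosome 10 at chr10:80260963-80261262. Alpl lies on the minus strand of chromosome 4 and has a distal window at chr4:137796335-137796634 and an internal one at chr4:137766426-137766725. Capitals mark matches on either strand to CCAAT, to TATAAA or to TGACG, the first bases of the cAMP response element.
Ckb promoter: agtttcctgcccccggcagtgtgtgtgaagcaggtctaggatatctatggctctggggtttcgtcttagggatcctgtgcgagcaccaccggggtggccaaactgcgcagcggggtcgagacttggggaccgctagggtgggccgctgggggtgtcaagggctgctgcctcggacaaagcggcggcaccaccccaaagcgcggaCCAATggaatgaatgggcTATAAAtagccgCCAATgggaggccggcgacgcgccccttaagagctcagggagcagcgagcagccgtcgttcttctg
Gamt promoter: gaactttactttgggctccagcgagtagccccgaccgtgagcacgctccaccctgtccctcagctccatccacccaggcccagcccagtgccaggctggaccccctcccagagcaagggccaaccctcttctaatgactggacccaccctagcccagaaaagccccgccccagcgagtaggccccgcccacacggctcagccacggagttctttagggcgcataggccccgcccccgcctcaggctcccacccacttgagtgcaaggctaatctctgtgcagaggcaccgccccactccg
Alpl distal promoter: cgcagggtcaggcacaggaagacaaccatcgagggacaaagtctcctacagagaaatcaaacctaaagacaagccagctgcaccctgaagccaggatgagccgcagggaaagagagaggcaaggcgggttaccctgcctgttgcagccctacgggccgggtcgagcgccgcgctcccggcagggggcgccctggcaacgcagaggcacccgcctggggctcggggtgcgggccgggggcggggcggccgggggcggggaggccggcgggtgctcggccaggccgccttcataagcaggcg
Alpl internal promoter: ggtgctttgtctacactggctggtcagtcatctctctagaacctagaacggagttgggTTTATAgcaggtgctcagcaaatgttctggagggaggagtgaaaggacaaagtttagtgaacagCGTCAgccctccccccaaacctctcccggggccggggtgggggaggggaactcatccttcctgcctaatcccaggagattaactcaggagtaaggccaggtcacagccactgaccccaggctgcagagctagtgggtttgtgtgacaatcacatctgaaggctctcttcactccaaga

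The Ckb window held TATAAA beginning 28 bases before the start and CCAAT beginning 46 and 16 bases before it. Of all 32851 windows in the table, 13.6% held TATAAA and 37.4% held CCAAT. The internal Alpl window held TGACG on the other strand, beginning 128 bases before the start, as did 20.8% of all windows, and TATAAA on the other strand, beginning 192 bases before it. No letters of the searched motifs were found in the distal Alpl window or in that of Gamt. The Gatm window held CCAAT once on each strand. The whole cAMP response element, TGACGTCA, stood in 1.79% of all windows, CACGTG in 7.15%, TCAAGGTCA of the estrogen-related receptors in 0.423% and AGGTCA repeated with 1 base between in 0.0396%. None of these last 4 stood in a window of the members in the table, which covered 6 of the 7 members without Slc6a8. Motif matches overlapped in no member window.

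Of the 7 members, 6 passed the filter on low counts and were tested together with 16737 genes in all. A gene was called in a contrast with an adjusted p under 0.05 in edgeR's quasi-likelihood test and an absolute log2 fold change over 0.5, and in the test over all 4 groups with an adjusted p under 0.001. Libraries held 15136861 to 46740702 counts. Sample labels put replicates 1 and 2 of each group in 1 batch and replicate 3 in another. The 14 skeletal muscle markers summed to 6146 to 20676 CPM in NCD RT replicate 2, NCD cold replicate 2, HFD RT replicate 3 and HFD cold replicate 3, and to 649 to 3875 CPM in the other 8 libraries. Values that move with this split are given beside the results.

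**Figure D1:**
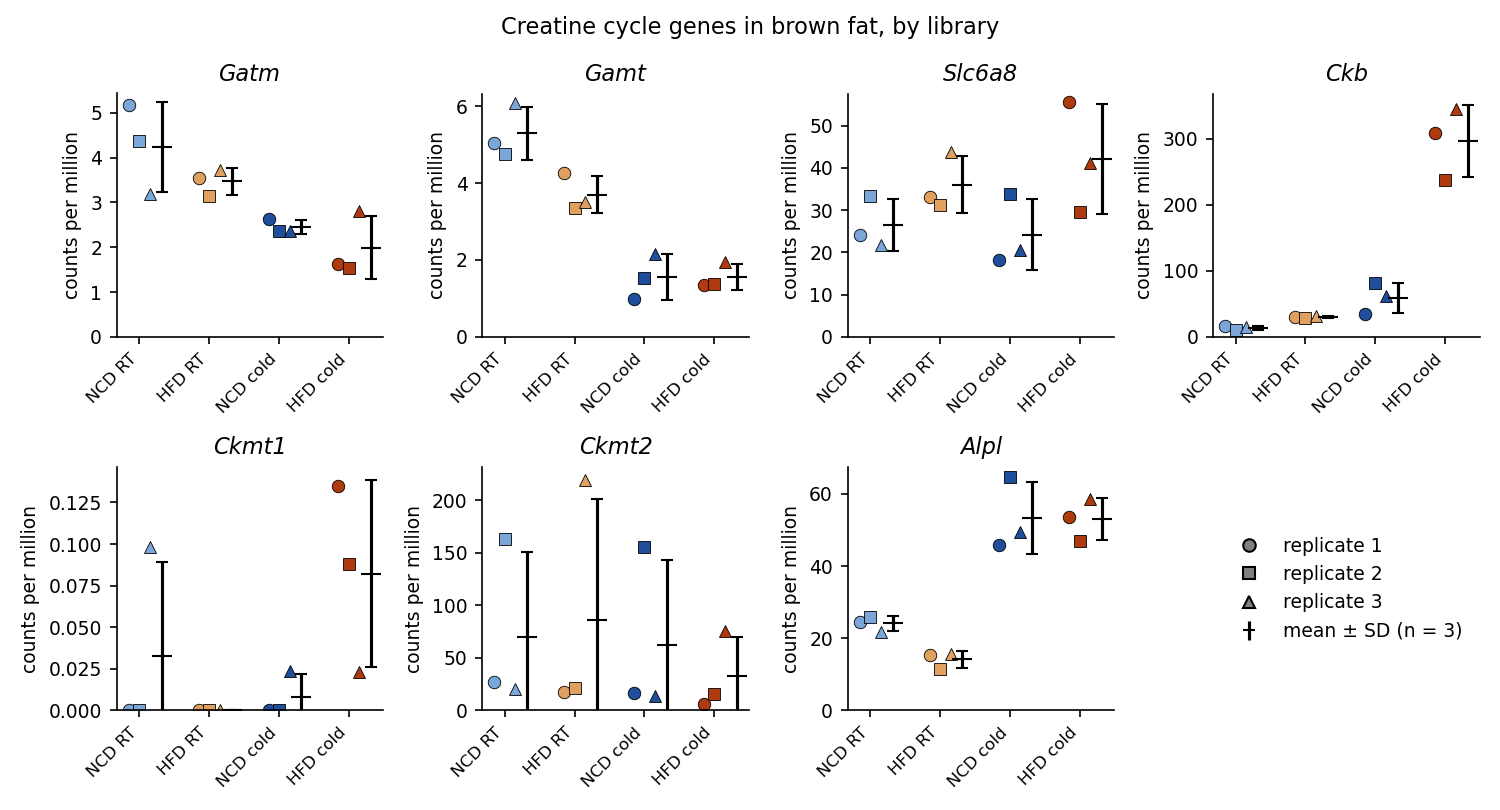
CPM (linear axis from 0) of each creatine cycle gene in the 12 libraries, by group, with replicates as symbols and the mean ± SD of 3 mice in black, cut off at 0 where the SD passes it. Ckb rises from 13.6 CPM in NCD RT to 296.5 CPM in HFD cold, Alpl separates cold from RT, Gamt is lower in the cold, and Ckmt2 is spread within every group.

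Ckb, the brain-type cytosolic creatine kinase (GRCm38 chromosome 12, 111669361 to 111672338), had the largest called fold of the members. It rose with cold on both diets and was higher in HFD cold than in NCD cold. The NCD RT libraries held 16.0, 10.6 and 14.2 CPM in replicates 1 to 3, and the HFD RT libraries 30.3, 28.3 and 31.1 CPM. The NCD cold libraries held 34.9, 80.9 and 61.1 CPM, and the HFD cold libraries 307.9, 236.9 and 344.7 CPM. No groups overlapped, and the order was NCD RT, HFD RT, NCD cold and HFD cold. The HFD cold mean of 296.5 CPM was 21.8 times the NCD RT mean of 13.6 CPM.

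With cold, Ckb rose 4.34-fold on NCD (log2 fold change 2.12, SE 0.27, edgeR adjusted p = 0.00141) and 9.92-fold on HFD (3.31, SE 0.28, adjusted p = 0.000168). By log2 fold change it stood at rank 125 of the tested genes on NCD and at rank 52 on HFD. In the cold, HFD mice had 5.03 times the Ckb of NCD mice (2.33, SE 0.27, adjusted p = 0.00143). At RT the ratio was 2.20 (1.14, SE 0.27), and with an adjusted p of 0.0521 it was not called, although the libraries did not overlap. That contrast passed with DESeq2 (adjusted p = 0.00121) and in a fit of the 6 RT libraries alone (adjusted p = 0.0232). It also passed without NCD cold replicate 1 (adjusted p = 0.0202) or NCD cold replicate 2 (0.0338), and reached at most 0.169 without any other library. In the test over all 4 groups Ckb had the rank 8 by p (adjusted p = 2.44e-05).

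The folds of Ckb were alike in both batches. Cold on NCD gave 4.36 in the batch of replicates 1 and 2 and 4.32 between the libraries of replicate 3, and cold on HFD gave 9.30 and 11.1. HFD at RT gave 2.20 in each batch and HFD in the cold 4.70 and 5.64. With the batch of replicates 1 and 2 alone, the adjusted p of HFD in the cold was 0.0785. The spread within a group was widest in NCD cold, where the SD was 39.1% of the mean, against 4.88% in HFD RT. Summed endothelial markers, 6 of 7 of which were used, none at 0, ran from 527 to 658 CPM in NCD RT, from 750 to 833 in NCD cold, from 733 to 990 in HFD RT and from 978 to 1099 in HFD cold. By median they were lowest in NCD RT and highest in HFD cold, as was Ckb. Their median was higher in HFD RT (880 CPM) than in NCD cold (809 CPM), the reverse of Ckb. Their HFD RT range overlapped those of both cold groups, while no groups overlapped for Ckb. Summed macrophage markers, all 5 of them and none at 0, ran from 110 to 240 CPM in HFD cold and from 80.6 to 109 in NCD cold, without overlap, with 1 of the 5, Mrc1, called higher with HFD in the cold. The part of either list in the Ckb result was not tested.

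Alpl, the tissue-nonspecific alkaline phosphatase (chromosome 4, 137741733 to 137796384), also rose with cold on both diets, and its diet contrast was called at RT and not in the cold, a difference that the interaction test described further on did not call. It held 24.5, 25.9 and 21.8 CPM in NCD RT and 15.3, 11.3 and 15.6 CPM in HFD RT. In NCD cold it held 45.8, 64.8 and 49.4 CPM, and in HFD cold 53.7, 46.9 and 58.6 CPM. The order was HFD RT, NCD RT and then both cold groups, which overlapped. Cold raised Alpl 2.22-fold on NCD (log2 fold change 1.15, SE 0.16, edgeR adjusted p = 0.00255) and 3.76-fold on HFD (1.91, SE 0.17, adjusted p = 0.000168). It fell by 0.77 on the log2 scale with HFD at RT (SE 0.16, adjusted p = 0.0389), to 14.1 ± 2.40 CPM from 24.1 ± 2.10 CPM (SD, n = 3). In the cold, the diet groups had means of 53.1 and 53.3 CPM, with a 95% interval of the log2 difference from -0.36 to 0.35. The test over all 4 groups called Alpl as well (adjusted p = 8.85e-05).

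The cold folds of Alpl were 2.19 and 2.26 in the 2 batches on NCD and 3.77 and 3.75 on HFD. The lower level with HFD at RT was less firm. Its ratio was 0.529 in the batch of replicates 1 and 2 and 0.718 between the libraries of replicate 3. Leaving out any 1 of the 6 RT libraries ended that call, with log2 differences of -0.87 to -0.64 and adjusted p values of 0.0658 to 0.125. It also ended in a fit of the 6 RT libraries alone (adjusted p = 0.0640).

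Gamt (chromosome 10, 80258151 to 80261012) and Gatm (chromosome 2, 122594467 to 122611303), the enzymes of creatine synthesis, were low in every library and lower in the cold. Gamt held 5.04, 4.77 and 6.07 CPM in NCD RT and 4.25, 3.35 and 3.50 CPM in HFD RT. It held 0.975, 1.53 and 2.15 CPM in NCD cold and 1.35, 1.36 and 1.96 CPM in HFD cold. The cold libraries lay below all RT libraries. It fell by 1.74 on the log2 scale with cold on NCD (SE 0.28, edgeR adjusted p = 0.00535) and by 1.23 on HFD (SE 0.28, adjusted p = 0.0179). The HFD call ended without HFD RT replicate 1, HFD cold replicate 1 or HFD cold replicate 2, with adjusted p values of 0.0661, 0.0749 and 0.0516. The cold groups had means of 1.55 and 1.56 CPM, and the HFD RT libraries lay below the NCD RT libraries without a call (-0.52, adjusted p = 0.343). In the test over all 4 groups the adjusted p of 0.00198 missed the limit. The cold ratios were 0.256 and 0.355 in the 2 batches on NCD and 0.357 and 0.559 on HFD.

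Gatm held 5.16, 4.36 and 3.18 CPM in NCD RT and 3.54, 3.14 and 3.73 CPM in HFD RT. In the cold it held 2.64, 2.35 and 2.37 CPM on NCD and 1.62, 1.54 and 2.80 CPM on HFD. Cold and RT did not overlap on either diet, yet neither contrast was called. The log2 fold change was -0.78 on NCD (SE 0.26, edgeR adjusted p = 0.101) and -0.79 on HFD (SE 0.26, adjusted p = 0.0762). Averaged over both diets, from the same libraries, Gatm fell by 0.79 (SE 0.19, adjusted p = 0.0119). Without HFD cold replicate 3, the highest of its group, the adjusted p was 0.0479 on NCD and 0.0249 on HFD. The cold ratios were 0.524 and 0.744 in the 2 batches on NCD and 0.473 and 0.750 on HFD. Counts of Gatm and Gamt ran from 17 to 248 per library.

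Summed fibroblast markers, all 5 of them and none at 0, were also lower with cold on NCD, while the HFD groups overlapped. They ran from 893 to 1504 CPM in NCD RT, from 367 to 412 in NCD cold, from 433 to 604 in HFD RT and from 219 to 596 in HFD cold. The collagen genes Col1a1 and Col3a1 fell with cold on NCD by 1.71 and 1.70 on the log2 scale (edgeR adjusted p = 0.0178 and 0.0167). Their part in the Gamt and Gatm results was not tested.

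Slc6a8, the creatine carrier (chromosome X, 73673150 to 73682502), was called in no contrast. It held 24.1, 33.4 and 21.7 CPM in NCD RT and 18.2, 33.9 and 20.5 CPM in NCD cold. In the HFD groups it held 33.1, 31.3 and 43.8 CPM at RT and 55.6, 29.5 and 41.3 CPM in the cold. The groups overlapped in each cold contrast and in each diet contrast. Averaged over temperatures, HFD libraries were higher by 0.63 on the log2 scale (SE 0.20), and the edgeR adjusted p of 0.059 missed the threshold. The 95% interval of the cold contrast ran from -0.74 to 0.49 on NCD and from -0.39 to 0.83 on HFD. HFD at RT gave a ratio of 1.12 in the batch of replicates 1 and 2 and of 2.01 between the libraries of replicate 3. With the skeletal muscle score as a term, HFD in the cold had a log2 fold change of 0.98 and an adjusted p of 0.0359, against 0.80 and 0.119 without it. The same contrast passed with DESeq2 (adjusted p = 0.0414) and without NCD cold replicate 2 (1.12, adjusted p = 0.0478). The averaged contrast passed with DESeq2 (DESeq2 adjusted p = 0.0162), and in edgeR without a filter (adjusted p = 0.0233) or with the muscle score (0.0161). It also passed without NCD cold replicate 2 (adjusted p = 0.0208) or HFD cold replicate 2 (0.0340), and without no other single library.

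Ckmt2, the sarcomeric mitochondrial creatine kinase (chromosome 13, 91853387 to 91876885), varied widely within every group, together with the muscle markers. It held 26.8, 162.9 and 20.4 CPM in NCD RT and 16.9, 155.4 and 13.2 CPM in NCD cold. On HFD it held 17.5, 21.6 and 219.2 CPM at RT and 6.48, 15.5 and 75.5 CPM in the cold. The library with the highest value in each group was the one with the high muscle marker sum. Across the 12 libraries, log2 CPM of Ckmt2 had a Pearson r of 0.963 with the mean log2 CPM of the 14 muscle markers, and of 0.988 around the group means. These libraries share their groups, so the values are a description. No contrast called Ckmt2, and the 95% intervals of its cold contrasts ran from -3.01 to 2.65 on NCD and from -4.28 to 1.47 on HFD, so that differences of several fold were not detectable. With the muscle score as a term, Ckmt2 was 0.77 higher with cold averaged over diets (log2, edgeR adjusted p = 0.00953), against -0.79 (adjusted p = 0.578) without it. In the fit that paired same-numbered libraries of a diet (replicate block), Ckmt2 was instead called lower with cold averaged over diets (-0.80, adjusted p = 0.0049) and with cold on HFD (-1.16, adjusted p = 0.00884), and it was lower in the cold library of all 6 pairs. The direction of a cold difference in Ckmt2 thus differed between these fits. Ckmt1, the ubiquitous mitochondrial form (chromosome 2, 121357714 to 121363737), had 0 counts in 7 libraries and at most 4 in the other 5, and was not tested. A count of 0 allows up to 3 counts, which is 0.0847 to 0.193 CPM in those 7 libraries, for counting error only.

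**Figure D2:**
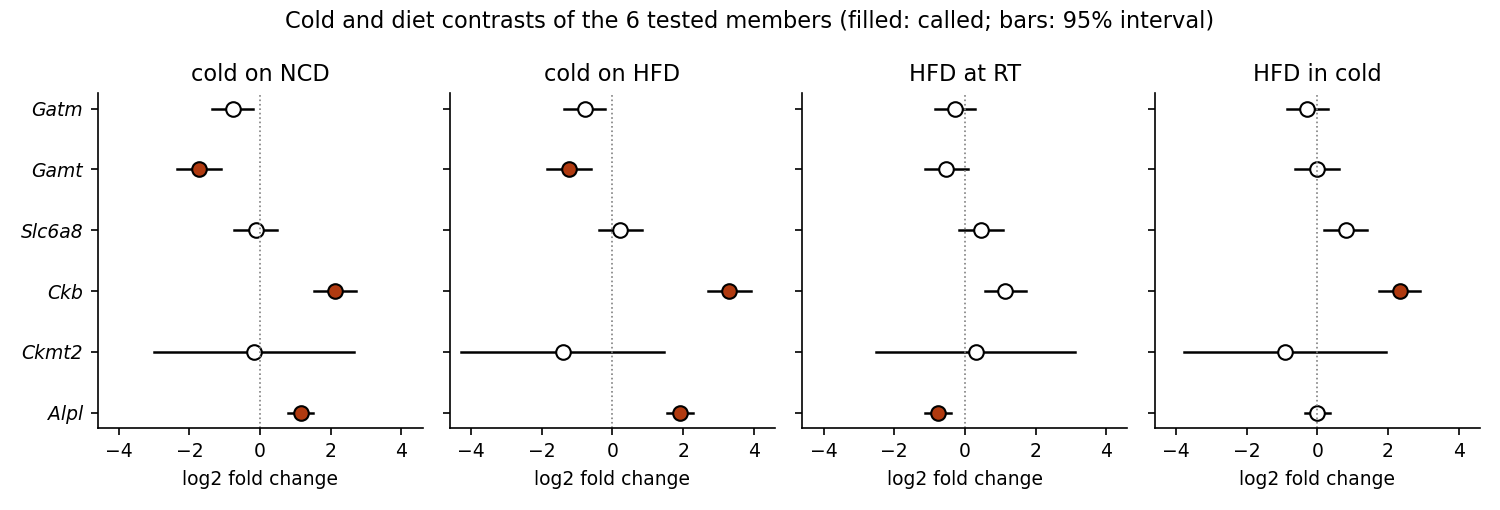
Log2 fold changes (points) with 95% intervals (bars) of the 6 tested members in the cold contrasts on NCD and HFD and the HFD contrasts at RT and in the cold. Filled points are called. Ckb lies at 2.12 and 3.31 in the cold contrasts, Gamt at -1.74 and -1.23, and the intervals of Ckmt2 span over 5 log2 units.

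Counted over the 7 members, cold on NCD called 3, with Ckb and Alpl higher and Gamt lower. Of all tested genes, 6.27% were called in that contrast, 3.72% higher and 2.55% lower. Cold on HFD called the same 3 members in the same directions, where 9.58% of all genes were called, 5.39% higher and 4.19% lower. Gatm was a further member without overlap between cold and RT on each diet, against 27.8% of all genes without overlap on NCD and 30.3% on HFD. HFD at RT called Alpl alone, with a background of 2.09%, while Ckb and Gamt were further members without overlap, as were 25.9% of all genes. HFD in the cold called Ckb alone, with a background of 4.75%. The averages over diets and over temperatures use the same libraries. Cold averaged over diets called Ckb, Alpl, Gamt and Gatm (background 12.7%), HFD averaged over temperatures called Ckb (7.8%), and the test over all 4 groups called Ckb and Alpl (2.55%).

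Whether diet altered the response to cold was tested as the interaction of diet and temperature. No member and 0% of all genes were called with edgeR. At an unadjusted p under 0.05 there were 2 of the 6 tested members, Ckb and Alpl, and 6.52% of all tested genes. With DESeq2, no member and 64 genes in all were called. For Ckb the cold response on HFD was 1.19 log2 units larger than on NCD (95% interval 0.38 to 2.00, edgeR adjusted p = 0.601). For Alpl it was 0.76 larger (0.26 to 1.27, edgeR adjusted p = 0.591). For Gamt the interval ran from -0.35 to 1.38, for Gatm from -0.81 to 0.79 and for Slc6a8 from -0.52 to 1.22. No difference between the cold responses of the diets passed the adjusted test.

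**Figure D3:**
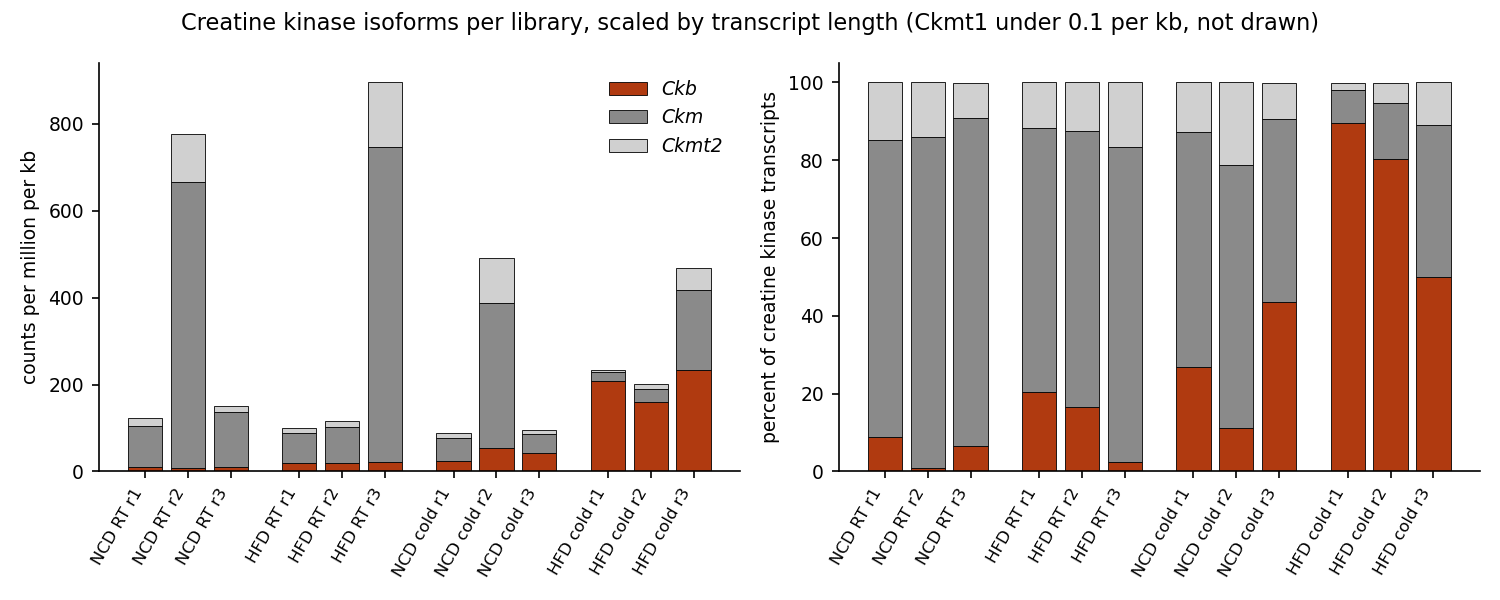
Creatine kinase isoforms in the 12 libraries as CPM per kb of the longest coding transcript (left, linear axis) and as percent of their sum (right), with r1 to r3 for replicates 1 to 3. Ckb makes up 50.1% to 89.6% in HFD cold and 0.926% to 8.85% in NCD RT, and the tallest bar of each group at left is the library with the most muscle marker RNA.

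Levels of different genes were compared as CPM per kb of the longest coding transcript. On this scale Ckm, the muscle creatine kinase, was the largest isoform in all RT and NCD cold libraries, and Ckb was the largest in all HFD cold libraries. In HFD cold replicate 3 this order turned with the length used, since Ckb was 1.28 times Ckm here, 0.693 times with lengths from the union of exons and 0.688 times without length scaling. Mean Ckb was 9.22 CPM per kb in NCD RT and 201.4 in HFD cold, while mean Slc6a8 was 6.66 and 10.6, Gamt 5.36 and 1.58, and Gatm 1.77 and 0.831 CPM per kb. The Ckb share of the 4 isoforms was 8.85%, 0.926% and 6.41% in NCD RT and 20.5%, 16.5% and 2.36% in HFD RT. It was 26.9%, 11.2% and 43.4% in NCD cold and 89.6%, 80.3% and 50.1% in HFD cold. Cold and RT did not overlap on either diet. The mean share rose by 21.8 percentage points with cold on NCD and by 60.2 on HFD, 41.0 on average (two-sided exact permutation test within diets, p = 0.005, the smallest that 400 arrangements can give). Within a diet alone, 3 against 3 libraries cannot give an exact p below 0.1. The lowest share in each group was that of the library with the most muscle marker RNA. Ckm, the larger part of the sum in all RT libraries, was itself lower in the cold library of every pair. It was called lower only with those pairs, so the share can hold a lower Ckm as well as a higher Ckb. Without single libraries the difference was 36.9 to 46.8 points.

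The summed level of the isoforms did not separate the groups. Its range was 123 to 776 CPM per kb in NCD RT, 88.3 to 492 in NCD cold, 100.5 to 895 in HFD RT and 201 to 468 in HFD cold. The averaged cold difference was -0.12 on the log2 scale (exact permutation p = 0.865). The sum without Ckm and Ckmt2, which was nearly Ckb alone, was 2.67 higher with cold (exact permutation p = 0.005).

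**Figure D4:**
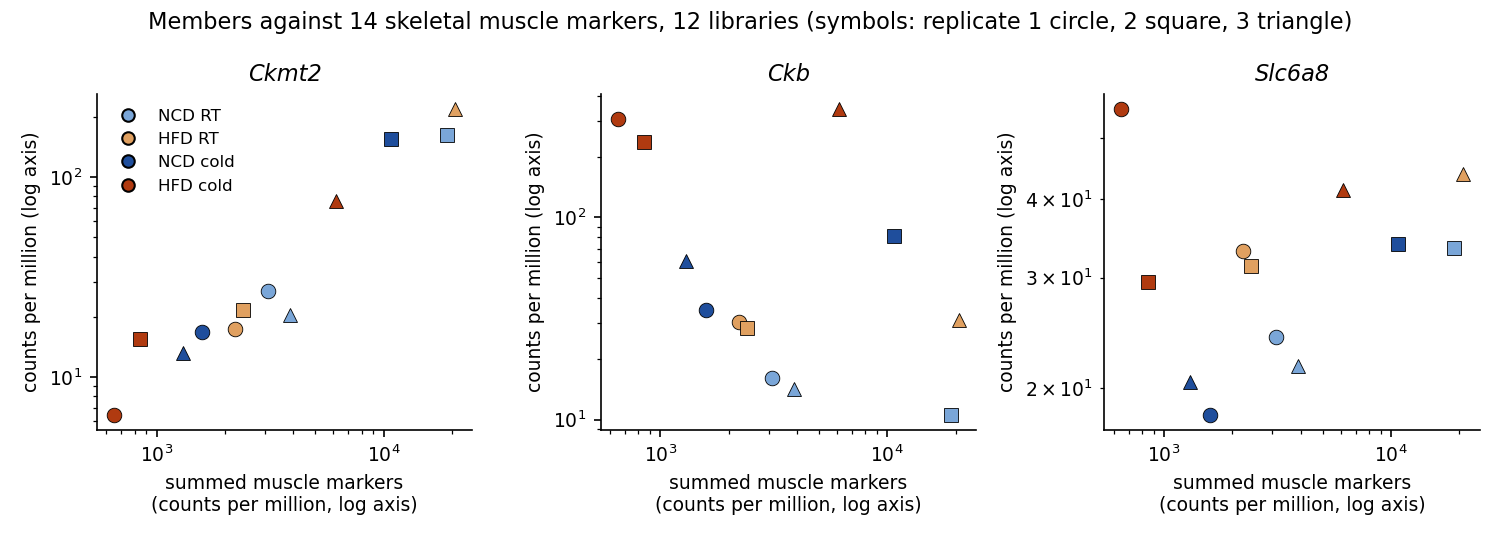
CPM of Ckmt2, Ckb and Slc6a8 (log axis) against the summed CPM of 14 skeletal muscle markers (log axis) in the 12 libraries, coloured by group with replicates as symbols. Ckmt2 climbs with the muscle markers over all groups (r = 0.963 of log2 CPM with the mean log2 CPM of the markers, not with the sum drawn). The Ckb libraries of HFD cold stay at 236.9 to 344.7 CPM over a range of muscle markers from 649 to 6146 CPM.

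The muscle markers went with the other members to differing degrees. All 14 were lower with cold on both diets, with a median log2 fold change of -0.98 on NCD and -1.82 on HFD. None was called in the fit without pairs, but with the replicate block within diet 11 were called lower on NCD and 13 on HFD. Of all 16737 genes, the block called 1483 in either direction on NCD and 2153 on HFD, against 1049 and 1603 without it. The summed markers were lower in the cold library of all 6 pairs. Ckm held 54.5 to 1992 CPM over the libraries and was likewise lower in the cold library of all 6 pairs. It was not called without the block, and with it Ckm fell with cold by 1.10 on NCD (edgeR adjusted p = 0.00488) and by 1.76 on HFD (adjusted p = 0.000609). The calls of muscle marker RNA with cold thus came only from the block, whose pairs rest on correlations in these same libraries. The lower direction stood beside each cold result given here. Around the group means, the Pearson r with the muscle score was 0.699 for Alpl, 0.601 for Slc6a8, 0.473 for Gatm, 0.278 for Ckb and 0.107 for Gamt (12 libraries each, a description). With the muscle score as a term, the cold contrasts of Ckb were 2.16 and 3.42 log2 units, those of Alpl 1.24 and 2.06, and those of Gamt -1.72 and -1.21, all still called. The part of muscle marker RNA in the members' results was not tested.

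Genes around the cycle were taken from 5 lists. As background for the counts in each list, cold on NCD called 3.72% of all tested genes higher and 2.55% lower. Cold on HFD called 5.39% higher and 4.19% lower. In the supply of arginine, glycine and methyl groups, 18 of 22 genes were tested, and cold called 2 on NCD and 3 on HFD, all higher. Nnmt, which spends methyl groups on nicotinamide, rose by 2.19 on NCD (edgeR adjusted p = 0.00734) and by 2.73 on HFD (adjusted p = 0.0017). Odc1, which makes putrescine from ornithine, rose by 0.99 and 1.28. Psat1 of serine synthesis rose by 2.90 on HFD (adjusted p = 0.00775), with 7.57 to 63.7 CPM in HFD cold against 4.70 to 4.80 in HFD RT, while on NCD its value was -0.64 (adjusted p = 0.561). In the cold, HFD mice had higher Psat1, Phgdh and Shmt2 and lower Psph than NCD mice. At RT, HFD mice had lower Shmt1 and Psph. Of these calls, those of Odc1 on NCD, Shmt1, Shmt2, Psph and Psat1 with HFD in the cold ended without at least 1 of the libraries, with adjusted p values up to 0.142, while those of Nnmt, Phgdh and Psat1 with cold on HFD held without any 1 library. The median log2 fold change of the list was -0.03 with cold on NCD and 0.34 on HFD, against -0.01 and -0.04 over all genes.

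In phosphotransfer and nucleotide exchange, 11 of 12 genes were tested and 1 was called in any of the 4 contrasts. Ak4, a mitochondrial adenylate kinase, rose by 1.38 with cold on NCD (edgeR adjusted p = 0.0106). The ATP/ADP carriers Slc25a4 and Slc25a5 were called nowhere, with log2 fold changes from -0.46 to 0.28. The list medians were 0.04 with cold on NCD and -0.09 on HFD. Of the 7 genes in the list of SLC16 carriers and SLC6 relatives of Slc6a8, 4 were tested. Slc16a12, a creatine transporter of the SLC16 family, fell with cold on NCD by 1.54 (adjusted p = 0.0314), at levels of 0.401 to 2.38 CPM over NCD libraries. Slc6a13, a carrier of GABA and taurine, was higher by 1.65 with HFD in the cold (adjusted p = 0.0371). Both calls ended without 1 library, in 6 and 8 of 12 cases, with adjusted p values up to 0.112 for Slc16a12 and 0.133 for Slc6a13. The list medians were -0.65 with cold on NCD and 0.09 on HFD.

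Among phosphatases and genes of phosphate handling, 8 of 11 were tested, and the other alkaline phosphatases Alpi, Akp3 and Alppl2 had 0 CPM as the mean of every group. Cold called 2 genes higher on NCD and 2 higher and 1 lower on HFD. Phospho1, a phosphatase of phosphocholine and phosphoethanolamine, rose by 2.27 on NCD (edgeR adjusted p = 0.00716) and by 1.82 on HFD (adjusted p = 0.0123). Its mean was 81.7 CPM per kb in NCD RT and 417 in HFD cold. The phosphate importer Slc20a1 rose by 1.33 on each diet (adjusted p = 0.0472 and 0.0362), calls that ended without 1 library in 9 and 6 of 12 cases, with adjusted p values of at most 0.15 and 0.13, and on NCD with the replicate block (0.0670). Ank, which exports pyrophosphate and ATP, fell by 1.22 with cold on HFD (adjusted p = 0.00188), to 75.4 ± 6.04 CPM from 175.4 ± 49.8 CPM (SD, n = 3). In the cold, HFD mice also had more Enpp1, which makes pyrophosphate, and less Acp5, calls that ended without 1 library in 4 and 9 of 12 cases, with adjusted p values up to 0.105 and 0.137. The list medians were 0.27 with cold on NCD and 0.21 on HFD.

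Of 12 thermogenic genes and genes of the estrogen-related receptors, cold called 6 higher on NCD and 3 on HFD, with list medians of 0.98 and 0.48. Ucp1, the uncoupling protein, rose by 1.96 on NCD and 0.92 on HFD (edgeR adjusted p = 0.000274 and 0.00656). Its means were 4203 CPM in NCD RT, 7022 in HFD RT, 16357 in NCD cold and 13323 in HFD cold, so that its highest group was NCD cold and that of Ckb was HFD cold. Dio2 and Elovl3 rose on both diets, by 2.62 to 2.86. Ppargc1a, Esrra and Perm1 were called on NCD only, and the interaction, which tests whether the cold responses differed between diets, called none of them. Leaving out 1 library ended these 3 calls in 4, 2 and 3 of 12 cases, with adjusted p values up to 0.0921.

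**Figure D5:**
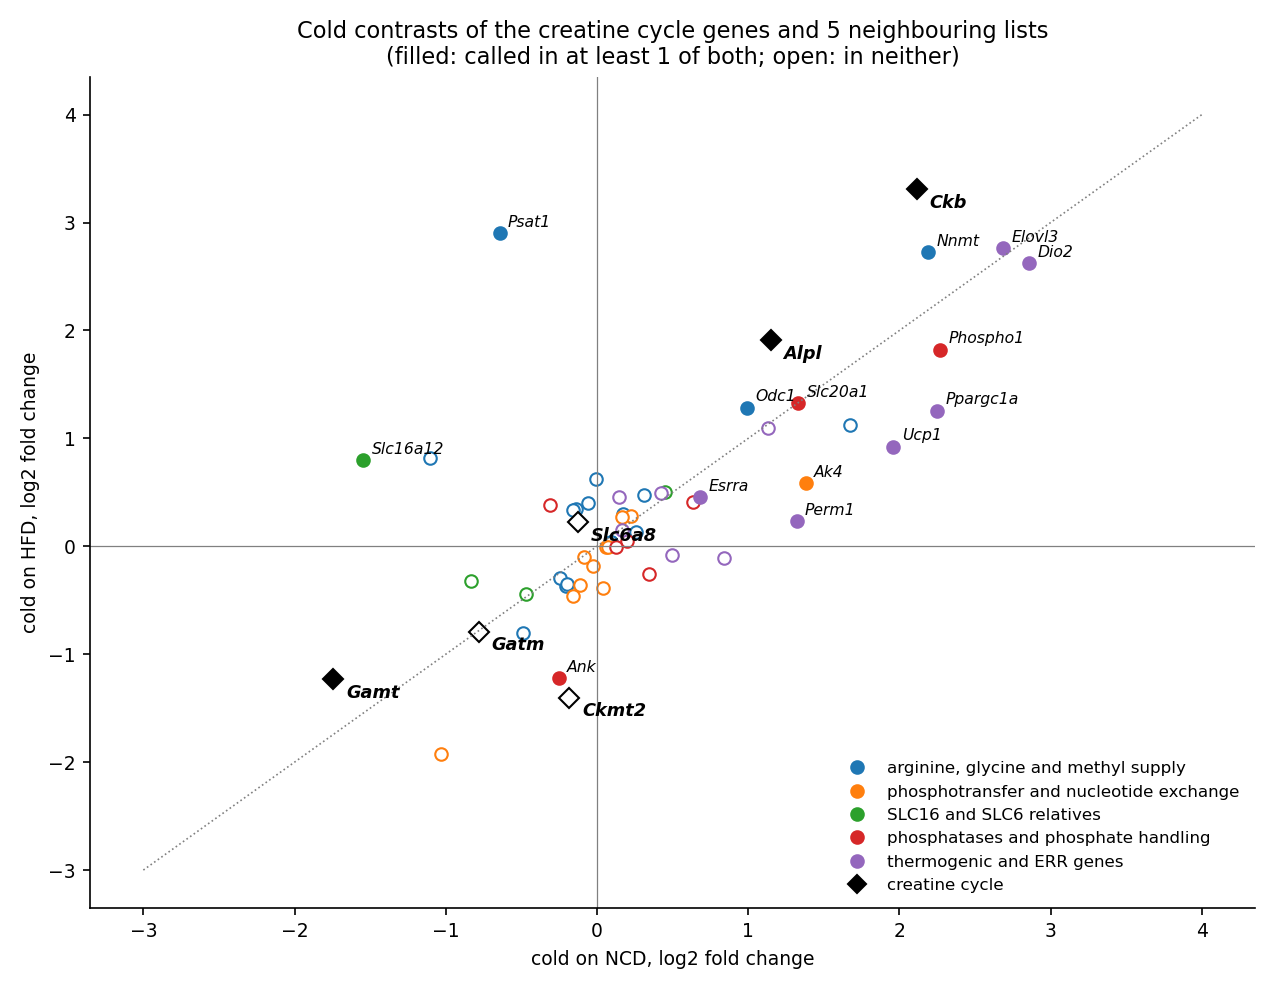
Log2 fold change with cold on HFD against that on NCD for the creatine cycle genes (diamonds) and tested genes of the 5 lists (circles, coloured by list). Filled symbols were called in at least 1 of both contrasts, the dotted line marks equal values, and the axes share no libraries. Ckb lies at 2.12 and 3.31, above the line, Psat1 at -0.64 and 2.90, and Ucp1 at 1.96 and 0.92, below it.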

How the data were processed

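Total RNA-seq of 12 iBAT libraries was analysed, with groups taken from the sample labels. Per the paper's methods, reads were trimmed (cutadapt) and assigned to transcripts of GENCODE M22 plus RNAcentral 5 (GRCm38) by salmon. The authors deposited whole-number estimated counts for each gene, not normalized and not pooled. Tool versions and strand use are not given in the sources used here. The submitters' processing notes also name DESeq2.

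Genes passing filterByExpr (minimum count 10) were TMM-normalized and tested by the quasi-likelihood method of edgeR 4.0.16 (R 4.3.3) with 1 mean for each of the 4 groups and Benjamini-Hochberg adjustment over 16737 genes. The edgeR p-values set each difference against the spread between these libraries, which the fit without pairs treats as independent. Gene models and lengths came from GENCODE M21. The genes named were the members and the called genes of 5 neighbouring lists. Members and lists were chosen with earlier results of these data known.

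Within a diet, libraries with the same replicate number had correlated deviations from the group mean (0.219, 0.456 and 0.281 on NCD, 0.155, 0.217 and 0.386 on HFD), on which alone the pairing rests. Different numbers within a diet gave -0.289 to 0.0439 on NCD and -0.268 to 0.134 on HFD. On HFD, 0.134 lies close to the 0.155 of replicate 1. Replicate 3 is also its own batch, which cannot be told apart from a shared number. Across diets, same numbers gave -0.211 to 0.365 and different numbers reached 0.374. Alternatives covered DESeq2 1.42.0, size factors, filters, replicate blocks, batch, a muscle score and left-out libraries. Lengths from the union of exons were added after seeing the data. The scripts were tested on simulated data.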

Additional observations from a re-analysis of the deposited data

How the results depend on the processing

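The number of members called stayed within 1.5-fold of its reported value for cold on NCD, cold on HFD and cold averaged over diets, and at 0 for the interaction, under all alternatives run. With the replicate block within diet, which uses the pairing, cold called 3 members on NCD, 4 on HFD and 5 averaged over diets. The addition was Ckmt2, and no other member changed its call. Of all 16737 genes, the block called 1483 on NCD, 2153 on HFD and 2564 averaged over diets, against 1049, 1603 and 2123 without it. The same block, applied to Ckm and the muscle markers after seeing the data, called Ckm and 13 of 14 markers lower with cold averaged over diets, against none without it. The 4-group test called 0 members in the batch of replicates 1 and 2 alone, against 2. Of all genes it called 0 of 16587 there, against 427 of 16737 in the main fit. The same test also called Gamt with DESeq2 (DESeq2 adjusted p = 3.56e-09) and without a filter (edgeR adjusted p = 0.000341). In that batch alone, HFD at RT called 42 of all genes, against 349, and HFD in the cold 53, against 795. HFD at RT called 1 member as reported, 2 with DESeq2, without a filter or with the muscle score, 0 with the block over all groups or in that batch alone, and 0 to 2 without single libraries. With only the 6 libraries compared the count stayed at 1, but the member called was Ckb in place of Alpl. HFD in the cold called 2 with DESeq2 or the muscle score, 0 in that batch alone, and 1 to 2 without single libraries. HFD averaged over temperatures called 2 with DESeq2, without a filter, without a minimum fold or with the muscle score, and 1 to 2 without single libraries. Without Ckm and Ckmt2, by construction nearly all is Ckb, so that the cold difference of its share was 0.085 points and that of the summed level 2.67. With lengths from the union of exons, chosen after seeing the data, the difference of the share was 34.2 points. The summed level without single libraries ran from -0.524 to 0.388.

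Values near 0 or with wide spread changed sign, and the cause was not tested. For Ckmt2 the muscle score gave 0.78 with cold on NCD, 0.75 on HFD, 0.77 averaged, and 0.32 and 0.33 for HFD in the cold and averaged, and HFD at RT was -0.60 with a batch term and -2.28 in 1 batch. Slc6a8 with cold on NCD was 0.0083 with the muscle score. Gamt with HFD in the cold was 0.0064 (block over all groups), 0.0071 (batch term), 0.12 (1 batch) and 0.0023 (6 libraries). Alpl with HFD in the cold was 0.0020 (no filter), 0.0033 (6 libraries) and 0.085 (muscle score). The Gatm interaction was 0.017 (DESeq2), 0.012 (size factors), 0.028 (no filter), 0.021 (mean filter) and 0.012 (muscle score). Without single libraries, Ckmt2 ran from -2.22 to 1.38 with cold on NCD, -2.94 to 0.74 on HFD and -1.81 to 0.28 averaged, from -1.84 to 1.87 with HFD at RT, -2.49 to 1.12 in the cold and -1.37 to 0.71 averaged, and from -2.78 to 0.92 in the interaction. The extremes came from leaving out a library rich in muscle markers. Slc6a8 ran from -0.44 to 0.076 with cold on NCD and -0.11 to 0.15 averaged, Gamt and Alpl with HFD in the cold from -0.25 to 0.32 and -0.11 to 0.16, and the Gatm interaction from -0.32 to 0.20.

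Among all genes, DESeq2 called 2625 in the 4-group test against 427 (1082 without a filter), 828 against 349 for HFD at RT, 1321 against 795 for HFD in the cold, and 64 against 0 for the interaction (27 without a filter).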

Other observations

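Over 16418 genes compared by Pearson r of log2 CPM across the 12 libraries, the genes with the pattern most like that of Ckb were Grrp1 (r = 0.981), Cerk (0.979) and Prdx6 (0.974). For Alpl they were Kcmf1 (0.977), 5031439G07Rik (0.960) and Atp6v1d (0.958). Gamt was most like Esyt1 (0.955), Impdh1 (0.954) and Fam189b (0.954), and Gatm was most like Map2k6 (0.935). The nearest genes to Ckmt2 were the striated muscle genes Cap2 (0.995), Asb14 (0.994) and Myot (0.993). The nearest to Slc6a8 were Rnf169 (0.935), Ifngr2 (0.926) and Pdlim1 (0.921). These libraries share their groups, so the values are descriptions.

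Among the members, Ckb and Alpl had an r of 0.681 over the 12 libraries and of 0.585 around the group means. Gatm and Gamt had an r of 0.796, which was 0.117 around the group means. Ckb and Ucp1 had an r of 0.735, and of -0.348 around the group means. Summed neutrophil markers, 10 genes of which 4 were tested, reached 16.3 CPM in HFD cold replicate 1 and at most 3.61 CPM in the other libraries.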
